A study of Mus musculus with 6 samples.

Results

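The cathepsins described here are a set of 10 genes of endosomes and lysosomes (Ctsa, Ctsb, Ctsc, Ctsd, Ctse, Ctsh, Ctsl, Ctss, Ctsz and Ctsk), listed by symbol and found by Ensembl identifier in a table of 19323 genes. All 10 were in the table. The RNA came from CD8+ T cells of spleen, labelled wild type, of C57BL/6 mice. The mice were put on a diet labelled ND or a diet labelled MCDHFD at 6 weeks of age and kept on it for 7 weeks, and the labels describe the mice as a model of MASH, an inflammatory fatty liver disease. Neither diet name is spelled out in the labels, and no transgene, Cre or drug is named in either group. Each diet had 3 libraries, and no label states whether each stands for a different mouse. The p-values therefore reflect only the variation among these libraries, which may be technical. The comparison asks how the cathepsin transcripts differ between the diets.

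Cathepsins are proteases, most of which are made as inactive precursors, sorted to endosomes and lysosomes, and activated there at acid pH. They fall into classes by the residue that cuts the peptide bond: aspartic (cathepsins D and E), serine (cathepsin A) and cysteine (cathepsins B, C, H, K, L, S and Z, which share the papain fold). Macrophages hold them in large amounts for digesting engulfed cells, and antigen-presenting cells use them, cathepsin S above all, to trim the invariant chain of MHC class II.

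Transcripts of 9 of the 10 cathepsins rose under MCDHFD, and the remaining one, Ctsk, was close to absent under both diets. The largest rise was that of Ctsl, 4.98-fold by the ratio of mean normalized counts, and the smallest that of Ctsa, 2.22-fold. A normalized count is a gene's read count divided by the authors' scaling factor for its library. Ctsk, with a mean below 10 normalized counts, was not tested. All 9 tested members passed limma, at an adjusted p under 0.05 over the 13430 tested genes, and all were higher, where limma called 58.4% of all tested genes and 30.3% in that direction. In each of the 9 every MCDHFD library lay above every ND library, which held for 33.2% of tested genes, while 32.3% had every MCDHFD library below. All 9 both passed limma and rose at least 2-fold on the log2 scale, as did 13.1% of tested genes. The median log2 fold change of the 9 was 1.74, beside 0.0038 for all tested genes. Fold changes in logs are on the scale of log2(normalized count + 1).

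Markers of macrophages moved with the cathepsins. Of the 29 monocyte and macrophage markers, 28 were tested, of which 24 rose and 3 fell (median log2 fold change 1.999). Their summed share of all normalized counts ran from 0.478% to 0.575% in ND libraries and from 2.33% to 2.83% in MCDHFD libraries, and none was at 0 throughout a diet. Genes of CD8 T cell identity, checked because the cells are labelled as such, were present in every library and all fell, 19 of 19 (median log2 fold change -0.997), from between 0.789% and 0.793% of counts to between 0.366% and 0.418%. Cd8a was measured at 13491 to 14172 normalized counts under ND and at 4884 to 5772 under MCDHFD. In RNA of a bulk sample, more cells of a type and more RNA per cell cannot be told apart. An alternative, added after seeing the data, held the mean log2 value of the macrophage markers equal in all libraries. None of the 9 cathepsins was then higher, 7 were lower and Ctsb and Ctsl did not pass. Most genes were called lower in this way, 12365 of the 13430 tested, while 347 were called higher. The median log2 change was then -0.41 for the 9 cathepsins, beside -2.15 over the tested genes. The lower calls were thus not particular to the cathepsins.

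**Figure D1:**
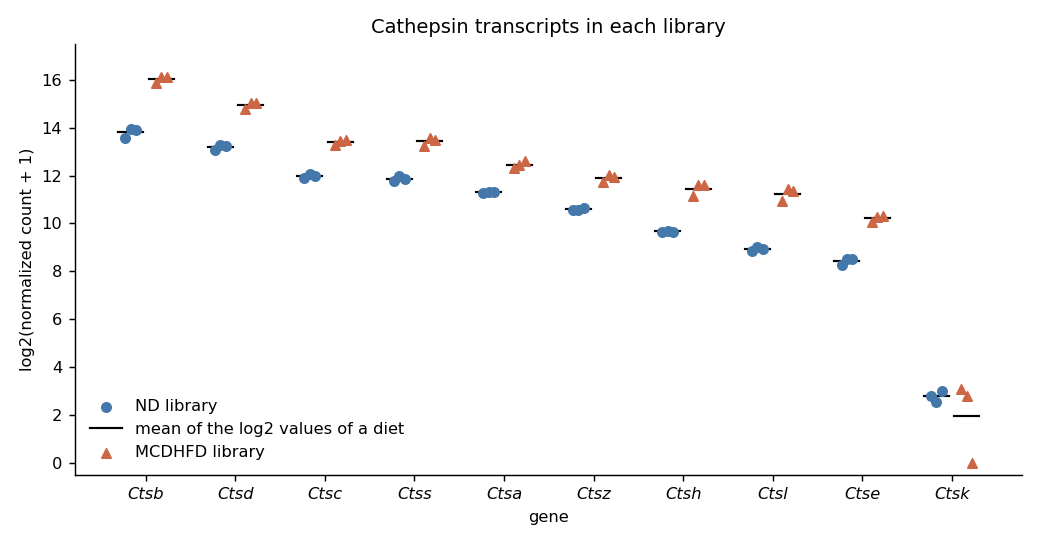
Level of each cathepsin gene as log2(normalized count + 1) in the 3 ND libraries (circles) and the 3 MCDHFD libraries (triangles), with a bar at the mean of the log2 values of each diet; genes are ordered by their ND mean. In 9 genes all triangles lie above all circles, and Ctsk lies near the bottom in both diets.

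Ctsd encodes the main aspartic endopeptidase of lysosomes (chromosome 7, 142375911 to 142388038, minus strand, mm10). The gene was measured at 8719, 9909 and 9565 normalized counts in ND replicates 1 to 3 and at 27903, 33393 and 33310 in MCDHFD replicates 1 to 3. The diets did not overlap, and the lowest MCDHFD library was replicate 1. The log2 fold change was 1.74 (SE 0.08, limma adjusted p = 5.28e-07). Ctse, the other aspartic member, is a protease found mainly in endosomes and best known from stomach lining, red cell precursors and immune cells (chromosome 1, 131638306 to 131675505, plus strand). It was measured at 303, 359.9 and 360.3 under ND and at 1062, 1248 and 1286 under MCDHFD, again without overlap (log2 fold change 1.81, SE 0.10, limma adjusted p = 1.12e-06). Markers of red cell precursors rose in the same libraries, 14 of 14, with a summed share of 0.0285% to 0.0303% under ND and 0.117% to 0.185% under MCDHFD, and their part in the Ctse result was not tested. The 2 aspartic genes rose by similar amounts. The ratio of Ctse to Ctsd counts within a library, which does not depend on its scaling, was 0.0348 to 0.0377 under ND and 0.0374 to 0.0386 under MCDHFD, and these ranges overlapped (exact two-sided permutation test, p = 0.2, adjusted p = 0.2 over 4 gene pairs). With 3 libraries against 3, the smallest p this test can give is 0.1.

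Among the cysteine endopeptidases, Ctsb and Ctsl had the largest fold changes of the set. Ctsb encodes cathepsin B, an endopeptidase that also trims dipeptides from the carboxyl end (chromosome 14, 63122462 to 63145923, plus strand). The gene stood at 12326, 15652 and 15292 normalized counts under ND and at 60729, 71854 and 71006 under MCDHFD, more counts than any other member had in each of the 6 libraries. Its log2 fold change was 2.24 (SE 0.10, limma adjusted p = 4.77e-07). Ctsl encodes cathepsin L, a strong endopeptidase that trims the invariant chain in thymic epithelium and takes part in lysosomal protein turnover in many cells (chromosome 13, 64359337 to 64370890, minus strand). Its values were 467, 519 and 494 under ND and 1991, 2751 and 2635 under MCDHFD (log2 fold change 2.30, SE 0.12, limma adjusted p = 6.75e-07). For both genes the diets were far apart, and replicate 1 was the lowest library of its diet.

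Ctss encodes cathepsin S, which stays active at neutral pH and makes the final cut of the invariant chain in B cells, dendritic cells and macrophages (chromosome 3, 95526786 to 95556403, plus strand). The libraries held 3497, 4035 and 3753 normalized counts under ND and 9742, 12304 and 11426 under MCDHFD (log2 fold change 1.56, SE 0.09, limma adjusted p = 1.42e-06). The groups did not overlap, but the rise was smaller than that of Ctsl. The Ctss to Ctsl count ratio was 7.49 to 7.77 in the ND libraries and 4.34 to 4.89 in the MCDHFD libraries, a difference of -0.74 in the log2 ratio (exact two-sided permutation test, p = 0.1, adjusted p = 0.133 over 4 gene pairs). The ranges of this ratio did not overlap.

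Ctsk, whose product is the collagen-cutting protease of osteoclasts, lies next to Ctss in the same orientation (chromosome 3, 95499256 to 95509362, plus strand), with 17423 bases between the genes. It was listed at 5.87, 4.86 and 6.93 normalized counts under ND and at 7.53, 5.90 and 0 under MCDHFD. These values stand for 6 and 5 reads in ND replicates 1 and 2 and for 8, 6 and 0 reads in the MCDHFD libraries. The 0 in MCDHFD replicate 3 allows up to 3 counts, or 3.36 normalized counts, by counting error only. A difference between the diets was not detectable at this depth. Without the filter on low values, limma gave Ctsk a log2 fold change of -0.81 (SE 0.77, adjusted p = 0.441).

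Of the cysteine exopeptidases, which trim peptides from their ends, Ctsc and Ctsz had smaller fold changes than Ctsb and Ctsl, with 95% intervals (1.26 to 1.58 and 1.13 to 1.49) below those of Ctsb (1.9996 to 2.48) and Ctsl. Ctsc encodes cathepsin C, or dipeptidyl peptidase I, which removes dipeptides and so activates granule serine proteases (chromosome 7, 88278085 to 88310888, plus strand). It was measured at 3871, 4262 and 4101 normalized counts under ND and at 9872, 11261 and 11550 under MCDHFD (log2 fold change 1.42, SE 0.07, limma adjusted p = 6.29e-07). Ctsz encodes the carboxypeptidase cathepsin Z, also called X (chromosome 2, 174427493 to 174439039, minus strand). It went from 1532, 1507 and 1607 under ND to 3416, 4212 and 3944 under MCDHFD (log2 fold change 1.31, SE 0.08, limma adjusted p = 1.68e-06). Neither gene had an MCDHFD library within its ND range. The aminopeptidase gene Ctsh (chromosome 9, 90054152 to 90076089, plus strand) was tight under ND, at 807, 829.8 and 809, and more spread under MCDHFD, at 2295, 3103 and 3088. Its log2 fold change was 1.78 (SE 0.11, limma adjusted p = 2.03e-06).

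Ctsa encodes cathepsin A, a serine carboxypeptidase that also shields the lysosomal enzymes beta-galactosidase and neuraminidase in a complex (chromosome 2, 164832873 to 164841032, plus strand). Normalized counts were 2484, 2583 and 2521 under ND and 5038, 5628 and 6201 under MCDHFD. This was the smallest rise of the tested members (log2 fold change 1.15, SE 0.07, limma adjusted p = 2.72e-06). The diets still did not overlap. Its 95% interval, 0.98 to 1.32, lay below that of Ctsl, 2.04 to 2.57. Of the partners in the complex, the neuraminidase gene Neu1 (log2 fold change 0.57) and the beta-galactosidase gene Glb1 (0.30) rose and Galns, a sulfatase gene, fell (-0.38). All 3 were called higher with CD8 T cell identity genes held equal, as were 11262 of the 13430 tested genes. With macrophage markers held equal all 3 were called lower, as were 12365 of the tested genes.

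The annotation places other genes over some members, and no source used here states whether reads were counted by strand. On the opposite strand, Ctsb overlaps Fdft1, Ctsz overlaps Nelfcd, Ctsa overlaps Neurl2 and Pltp, Ctsc overlaps Gm26522 and Ctsl overlaps Gm47123. On their own strand, Ctsd overlaps Gm49369 and the pseudogenes Gm49230 and Hmgb1-ps5 lie within the bounds of Ctsl and Ctss. Reads of these partners cannot be told apart from those of the cathepsins where exons overlap. Pltp, the phospholipid transfer protein gene beside Ctsa, rose more than Ctsa did, from 238 ± 14.1 to 2177 ± 287 normalized counts (SD, n = 3 per diet, log2 fold change 3.18). Fdft1, opposite Ctsb, fell from 214 ± 27.3 to 114 ± 6.01 (log2 fold change -0.90). Ctse, Ctsh and Ctsk overlap no annotated gene.

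Within a diet most of the tested cathepsins were lowest in the same library. MCDHFD replicate 1 was the lowest library of its diet in 9 of the 9 tested members, and ND replicate 1 was the lowest of its diet in 8. The same 2 libraries had the lowest summed share of macrophage markers of their diet, 2.33% in MCDHFD replicate 1 and 0.478% in ND replicate 1. MCDHFD replicate 1 was also lowest of its diet in markers of red cell precursors (0.117%) and neutrophils (0.0755%). It was highest in CD8 T cell identity genes (0.418%). ND replicate 1 was lowest in red cell precursor markers (0.0285%) but highest in neutrophil markers (0.0172%). The share of all tested genes lowest in these libraries was not counted, so a trait of the whole library cannot be told apart. The highest library was less uniform. Under MCDHFD it was replicate 2 for 6 tested members and replicate 3 for 3. Under ND it was replicate 2 for 7 and replicate 3 for 2. All 10 cathepsins together took 0.238%, 0.281% and 0.273% of the normalized counts in ND replicates 1 to 3 and 0.838%, 0.999% and 0.979% in MCDHFD replicates 1 to 3. The mean share was 3.56 times as large under MCDHFD. The macrophage marker list reached 4.97 times its ND share. The lists of red cell precursor and neutrophil markers reached 5.45 and 7.24 times theirs.

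**Figure D2:**
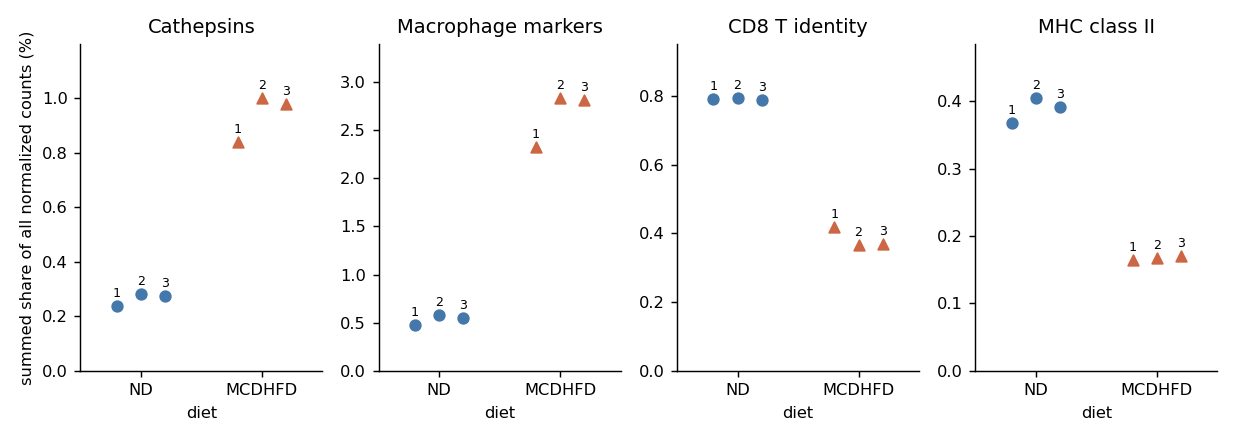
Share of all normalized counts, in percent, taken by the 10 cathepsins, by 29 monocyte and macrophage markers, by 19 CD8 T cell identity genes and by 11 MHC class II genes; each point is a library and its number is the replicate, with its own scale in each panel starting at 0. The cathepsin and macrophage panels show the same order of libraries within each diet. Markers of red cell precursors, not drawn here, had that order too. The other panels show lower shares under MCDHFD.

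The order of the cathepsins by level was nearly the same under both diets. Levels were compared between genes as normalized counts per kilobase of annotated exon. The length joined the exons of all annotated transcripts, from 1358 bases for Ctss (2 transcripts) to 6489 for Ctsl (7 transcripts). Annotated exons that these cells do not use lower a gene's level by this measure, so the order depends partly on the annotation. Under ND, Ctsd led at 3997 per kb, followed by Ctss at 2770 and Ctsb at 2384, and the ranges of Ctss and Ctsb overlapped. Ctsz (1075), Ctsc (702), Ctsa (536), Ctsh (181), Ctse (108) and Ctsl (76.0) followed, each apart from the next in every library, and Ctsk came last at 3.89. Under MCDHFD, Ctsd (13414 per kb) and Ctsb (11215) overlapped, Ctss followed at 8216, and Ctsl (379) and Ctse (378) overlapped. The level of Ctsb per kb was above that of Ctss in every MCDHFD library.

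The make-up of the family shifted toward Ctsb. By summed counts per kb, Ctsb held 20.1% ± 1.26 of the cathepsin transcripts under ND and 28.1% ± 0.284 under MCDHFD (SD, n = 3 per diet). Ctsl went from 0.643% ± 0.0146 to 0.943% ± 0.0669. Over the same libraries Ctss went from 23.4% ± 0.491 to 20.5% ± 0.598, Ctsz from 9.11% ± 0.683 to 6.70% ± 0.153 and Ctsa from 4.54% ± 0.240 to 2.99% ± 0.176. Ctsd held the largest share under both diets, 33.8% ± 0.144 and 33.5% ± 0.295. These shares are descriptions with no test, and their sizes depend on the exon lengths used. A share can fall while the gene's own level rises, as it did for Ctss, Ctsz and Ctsa.

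**Figure D3:**
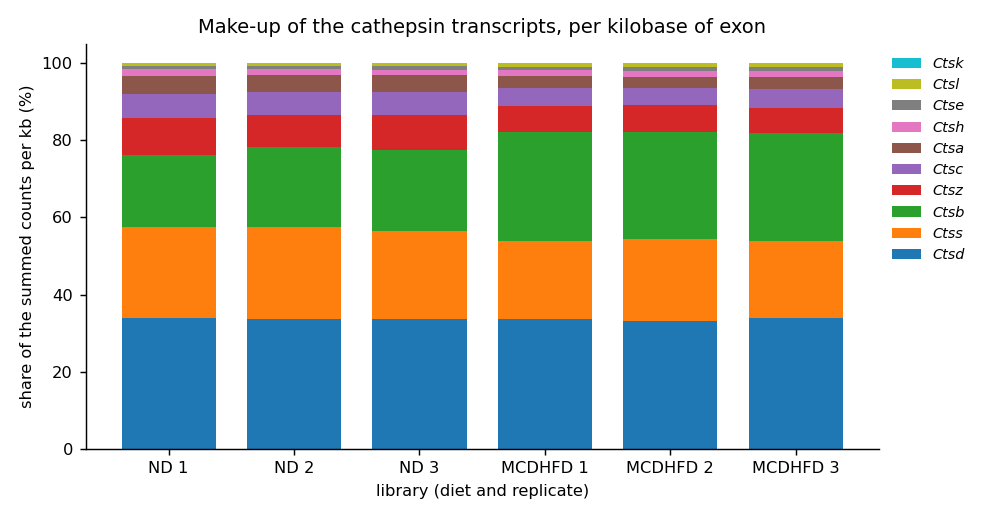
Share of each cathepsin gene in the summed normalized counts per kilobase of exon, in percent, for each of the 6 libraries. The Ctsb segment is larger in the 3 MCDHFD libraries (28.1% on average) than in the 3 ND libraries (20.1%), and Ctsd is the largest segment in every library.

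Promoter sequence is shown for members that rose together because a family of transcription factors, TFEB, TFE3 and MITF, is known to bind the hexamer CACGTG upstream of many lysosomal genes, and interferon-responsive factors are known to bind repeats of GAAA such as that upstream of Ctss. The 250 bases before the start of transcription were taken from RefSeq (GRCm38.p6), which had 8 such windows for 7 of the 10 genes. None was found in that table for Ctsb, Ctse and Ctsh. Both strands were searched, and the motifs were chosen after the sequences had been seen. CACGTG was in 3 of the 8 windows (1 each of Ctsa, Ctsd and Ctsl) and in 6.02% of 32851 windows of all genes. The longer TCACGTG, which contains it, was in 2 of the 8 and in 3.13% of all. The pattern GAAA, any 2 bases, GAAA was in the Ctss window and in 2.98% of all, and GAGGAAG, a purine-rich core of the kind bound by the myeloid factor PU.1, was in the windows of Ctsc and Ctsk and in 10.6% of all. Such matches describe the letters only. The stretches holding the motif, in capitals, follow 5′ to 3′ on the gene's strand. The sites of Ctsa and Ctsl and the nearer site of Ctsd overlap annotated exons (GENCODE M21). The windows of Ctsa and Ctsl that hold CACGTG lie wholly inside the annotated bounds of their genes, not upstream of them. The other Ctsa window, just before the annotated start of the gene, had no CACGTG.
Ctsd, chr7:142388048-142388077, minus strand, motif 245 bases before the start: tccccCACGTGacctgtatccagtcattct
Ctsd, chr7:142387908-142387937, minus strand, motif 98 bases before the start: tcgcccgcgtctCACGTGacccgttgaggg
Ctsa, chr2:164833743-164833772, plus strand, motif 12 bases before the start: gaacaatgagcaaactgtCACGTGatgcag
Ctsl, chr13:64370739-64370768, minus strand, motif 236 bases before the start: ggcgttagaagcCACGTGctgatctaaatt
Ctss, chr3:95526536-95526785, plus strand, the whole window with the GAAA repeats and the 2 bases between them in capitals, 21 bases before the start: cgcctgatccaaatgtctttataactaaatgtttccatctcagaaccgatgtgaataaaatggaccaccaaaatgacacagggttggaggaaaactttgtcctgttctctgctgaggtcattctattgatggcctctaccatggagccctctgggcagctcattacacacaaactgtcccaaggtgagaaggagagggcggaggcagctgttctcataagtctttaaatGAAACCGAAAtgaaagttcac

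Of the factors that bind CACGTG, Tfec rose from 73.5 ± 1.82 to 447 ± 57.9 normalized counts (SD, n = 3 per diet, log2 fold change 2.58, limma adjusted p = 5.11e-07). Mitf rose from 92.2 ± 31.5 to 238 ± 35.1 (log2 fold change 1.41). Tfe3 rose by 0.26 on the log2 scale (limma adjusted p = 0.0354) and lost its call under quantile scaling (0.18, limma adjusted p = 0.104). Tfeb was at 436 ± 28.7 under ND and 375 ± 30.4 under MCDHFD and did not pass (log2 fold change -0.22, limma adjusted p = 0.0659), but was called lower under quantile scaling (-0.30). With macrophage markers held equal, 1 of the 4 was higher and 3 were lower. That scaling called 12365 of all 13430 tested genes lower and 347 higher.

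Cathepsins outside the set did not all go the same way. Ctsw, the cathepsin of CD8 T and NK cells, fell: the values were 3176, 3078 and 2930 normalized counts under ND and 1666, 1479 and 1658 under MCDHFD (log2 fold change -0.94, SE 0.06, limma adjusted p = 3.69e-06). That is close to the median of the CD8 T cell identity genes, -0.997. With those genes held equal in all libraries Ctsw was no longer called (log2 fold change 0.11, limma adjusted p = 0.179). That scaling called 430 of the 13430 tested genes lower, beside 3772 with the deposited scaling. The median log2 change of all tested genes was then 1.05. Ctsf, a cysteine cathepsin found in many tissues and in macrophages, rose from 52.9, 67.1 and 76.2 to 249.4, 332 and 355 (log2 fold change 2.24). Ctso, a little-studied relative, rose by 0.45 on the log2 scale, from 817 ± 51.4 to 1114 ± 21.6. Ctsg, a serine protease of neutrophil granules and not a lysosomal protease of the papain kind, was listed at 0.979, 0 and 0 under ND and at 103, 263 and 195 under MCDHFD. The ND values of Ctsg lie below 3 counts, so no fold is given. Of the 12 other cathepsin genes listed, these 4 were in the table, and the placental group (Ctsj, Ctsm, Ctsq, Ctsr, Cts3, Cts6, Cts7 and Cts8) was not.

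**Figure D4:**
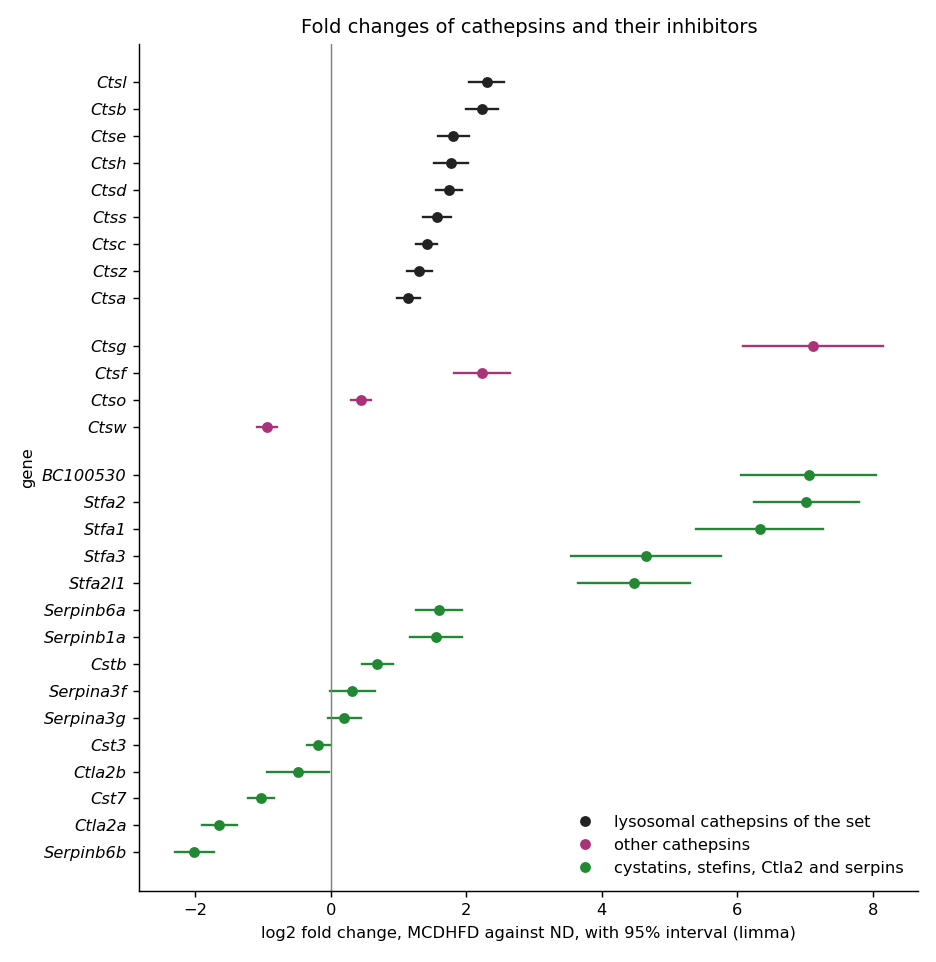
Log2 fold change of MCDHFD against ND with its 95% interval from limma for the 9 tested cathepsins of the set, 4 other cathepsins and 15 inhibitor genes. The 9 cathepsins lie between 1.15 and 2.30; Ctsw lies below 0, and the inhibitors reach from Serpinb6b at -2.01 to stefin genes whose ND values are at or near 0, where the plotted fold depends on the pseudocount.

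Inhibitors of cathepsins moved in both directions, as did all tested genes, of which limma called 30.3% higher and 28.1% lower. Of 15 tested genes of cystatins, stefins, the cathepsin propeptide-like Ctla2 genes and intracellular serpins, 8 rose and 3 fell (median log2 fold change 0.69, also with genes at 0 set at their lower bounds). The secreted cystatin C gene Cst3, the most abundant of them by counts, was measured at 3831, 4335 and 4494 under ND and at 3473, 3895 and 3797 under MCDHFD. These ranges overlapped, and Cst3 did not pass (log2 fold change -0.18, limma adjusted p = 0.0617). With CD8 T cell identity genes held equal Cst3 was called higher (0.86), as were 11262 of the 13430 tested genes. The median of all tested genes was then 1.05, above the value of Cst3. With macrophage markers held equal, 5 of the 15 were higher and 10 lower, where 347 of all 13430 tested genes were higher and 12365 lower. The cytosolic stefin B gene Cstb rose from 264 ± 22.7 to 426 ± 31.7 (log2 fold change 0.69, limma adjusted p = 0.00035). The Ctsb to Cstb count ratio was 43.1 to 63.6 in ND libraries and 156 to 164 in MCDHFD libraries, without overlap (difference in log2 ratio 1.55, exact two-sided permutation test, p = 0.1, adjusted p = 0.133 over 4 gene pairs).

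The 3 inhibitor genes that fell were Cst7, Ctla2a and Serpinb6b. Cst7, whose product cystatin F restrains cathepsin C in NK and cytotoxic T cells, had a log2 fold change of -1.03, with 819 ± 72.3 normalized counts under ND and 399.9 ± 16.2 under MCDHFD. With CD8 T cell identity genes held equal, Cst7 was no longer called (log2 fold change 0.01, limma adjusted p = 0.900). Its call thus depended on the scaling, while Ctla2a and Serpinb6b were lower under that scaling too. With CD8 T cell identity genes held equal, 430 of the 13430 tested genes were called lower, beside 3772 with the deposited scaling. Most lower calls were thus lost, not only that of Cst7. Ctla2a, a T cell gene first found in activated lymphocytes, fell by 1.64 on the log2 scale, from 364 ± 22.4 to 116 ± 11.8, and the serpin gene Serpinb6b from 516 ± 66.7 to 127 ± 14.9 (log2 fold change -2.01). Ctla2b, a relative of Ctla2a, did not pass (log2 fold change -0.48, limma adjusted p = 0.0638). It was called higher with CD8 T cell identity genes held equal (0.56), as were 11262 of the 13430 tested genes. The median of all tested genes was then 1.05. The stefin A genes, known from neutrophils and their precursors, went the other way from the 3 genes that fell. Stfa2 was at 0 in the 3 ND libraries and at 104, 130 and 158 under MCDHFD, at least 44.4-fold higher against a floor of 3 counts per library, and BC100530, likewise at 0 under ND, was at least 48.98-fold higher. For Stfa3, also at 0 under ND, the bound was lower, at least 8.46-fold. Because the stefin A genes are nearly the same in sequence, how reads were divided among them is uncertain. Neutrophil markers rose in 11 of 13 tested in the same libraries, and their summed share went from between 0.0119% and 0.0172% to between 0.0755% and 0.127%. The part of these cells in the stefin result was not tested.

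Of 11 genes that deliver and activate cathepsins, 7 rose and 1 fell, with a median log2 fold change of 0.77 (2 higher and 8 lower with macrophage markers held equal). Lgmn, the legumain gene, encodes the asparaginyl endopeptidase that cuts several cathepsin precursors to their mature chains. Its transcript stood at 1759, 2149 and 1983 normalized counts under ND and at 17088, 19808 and 20171 under MCDHFD. The log2 fold change, 3.28, was above that of each of the 9 cathepsins (SE 0.09, limma adjusted p = 6.02e-08). Sort1, a sorting receptor for lysosomal proteins (log2 fold change 2.53), Grn, the progranulin gene (2.17), and Psap, the saposin precursor gene (1.04), rose as well. In the mannose 6-phosphate system, which carries newly made hydrolases to lysosomes, the receptor gene M6pr rose by 0.25, Gnptg fell by 0.54, and Igf2r (-0.02, limma adjusted p = 0.792), Gnptab (0.09) and Nagpa (0.36) did not pass. With CD8 T cell identity genes held equal all 5 were called higher, as were 11262 of the 13430 tested genes. With macrophage markers held equal all 5 were called lower, as were 12365 of the tested genes, while 347 were higher.

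Other parts of the lysosome rose too, mostly by less. Of 8 other lysosomal peptidases 7 rose and 1 fell (median log2 fold change 0.80), with Lgmn ahead of the carboxypeptidase gene Cpq (1.59), the aspartic protease gene Napsa (1.46) and Prcp (0.89). Of 25 hydrolases of lipids, sugars and phosphates 20 rose and 2 fell (median 0.50), among them the acid ceramidase gene Asah1 (2.22), Galc (2.09) and Pla2g15 (2.04). Of 12 lysosomal membrane genes 9 rose and none fell (median 1.07), led by Cd68 (1.91, also a macrophage marker), Lamp1 (1.63), Lamp2 (1.53) and the cholesterol exporter gene Npc1 (1.18). No tested hydrolase or membrane gene had a higher log2 fold change than Ctsb or Ctsl. Of the macrophage markers, 12 of 28 exceeded Ctsb and Ctsl, 21 exceeded Ctsd and 23 exceeded Ctss, Ctsc, Ctsz and Ctsa. Among the markers above all 9 cathepsins were Msr1 (6.96), Vsig4 (5.80), Apoe (3.97) and Marco (3.30), of scavenging and lipid transport. With macrophage markers held equal, none of the 25 hydrolases and 12 membrane genes was called higher, while 21 and 11 were lower. Of the 8 peptidases 1 was higher and 7 were lower. That scaling called 12365 of all 13430 tested genes lower and 347 higher.

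**Figure D5:**
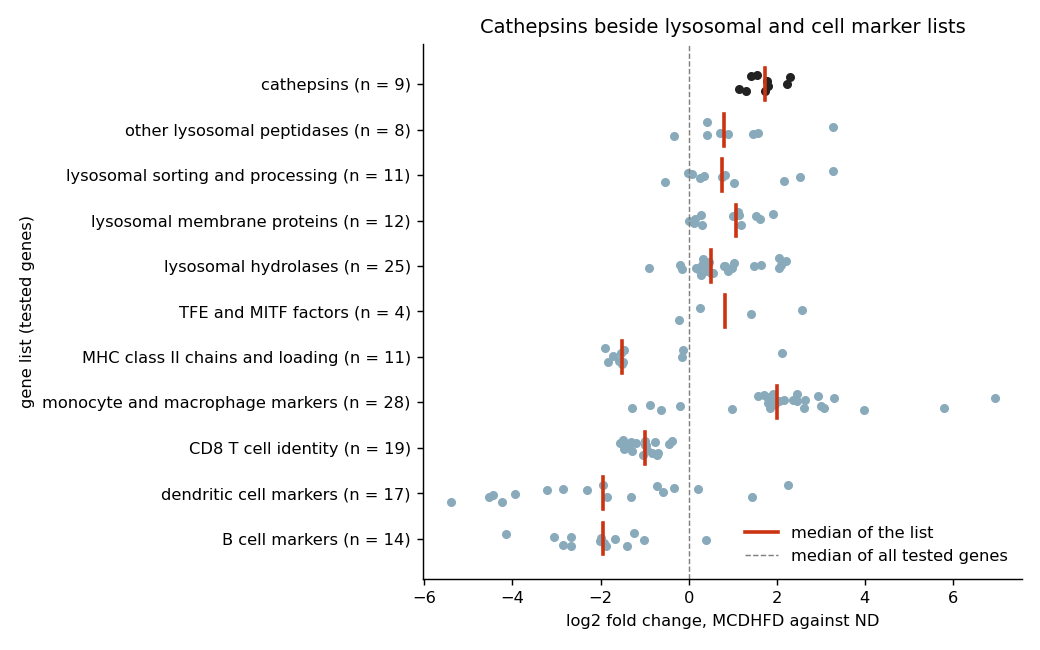
Log2 fold change of MCDHFD against ND for the tested genes of 11 lists (points), with the median of each list as a vertical bar and the median of all 13430 tested genes as a dashed line; vertical scatter within a list has no meaning. The cathepsins sit between 1.15 and 2.30, with Ctsb and Ctsl above the macrophage marker median of 1.999 and the other 7 below it, while the MHC class II, dendritic cell, B cell and CD8 T cell medians lie below 0.

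Most genes of the pathway that cathepsin S serves fell. Of 11 genes of MHC class II chains and their loading, 8 fell and 1 rose (median log2 fold change -1.50). Cd74, the invariant chain gene, was measured at 21601, 23316 and 22968 normalized counts under ND and at 7702, 8231 and 8339 under MCDHFD (log2 fold change -1.48, limma adjusted p = 1.93e-07). The Ctss to Cd74 count ratio was 0.162, 0.173 and 0.163 under ND and 1.265, 1.495 and 1.37 under MCDHFD, a difference of 3.05 in the log2 ratio (exact two-sided permutation test, p = 0.1, adjusted p = 0.133 over 4 gene pairs). H2-DMb2 (-1.91), H2-Ob (-1.83) and the class II transactivator gene Ciita (-1.72) fell. H2-DMa (-0.14, limma adjusted p = 0.102) and H2-DMb1 (-0.13, limma adjusted p = 0.252) did not pass. The gene that rose was Ifi30 (2.13), whose product, a lysosomal thiol reductase, opens disulfide bonds of proteins before cathepsins cut them. B cell markers fell in 13 of 14 and rose in 1, and dendritic cell markers fell in 14 of 17 and rose in 3. The dendritic cell gene Cd209a was at 0 in all MCDHFD libraries. Summed shares changed less, from between 0.146% and 0.162% to between 0.121% and 0.138% for B cells and from between 0.176% and 0.187% to between 0.173% and 0.181% for dendritic cells. The part of these cells in the class II result was not tested. With CD8 T cell identity genes held equal, 3 of the 11 class II genes were called higher and 8 lower. Over all 13430 tested genes that scaling called 11262 higher and 430 lower. With macrophage markers held equal, none of the 11 was higher and 10 were lower, where 347 and 12365 of all tested genes were.

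Granule serine proteases, many of which need cathepsin C for activation, went in both directions, with 3 of 7 tested higher and 3 lower. Over all tested genes, limma called 30.3% higher and 28.1% lower. The proteases are listed by the cells that store them. The neutrophil elastase gene Elane (from 1.63 ± 1.13 to 338 ± 114 normalized counts), the proteinase 3 gene Prtn3 (5.88 ± 2.58 to 295 ± 92.8) and Ctsg rose. The granzymes of lymphocytes fell or did not pass. Gzma (log2 fold change -1.80), Gzmm (-1.76) and Gzmk (-1.76) fell. Gzmb was at 153 ± 5.16 and 168 ± 14.7 (log2 fold change 0.13, limma adjusted p = 0.365). With CD8 T cell identity genes held equal Gzmb was called higher (1.17), where the median of all tested genes was 1.05. The genes that rose with Ctsc were those of neutrophil granules, in libraries where the neutrophil markers named above rose as well. The part of neutrophils in this result was not tested.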

How the data were processed

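Per the labels' protocols, TRIzol extraction of splenic CD8+ T cells was followed by library preparation with 1 of 2 kits, for whole RNA or for mRNA. Not given in the sources used here: which kit each library had, and the aligner, counter and gene annotation. The genome build was mm10, per the submitters' processing notes.

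The deposited signal is gene read counts that the authors divided by 1 factor per library, per the file headers and the values. Dividing by the smallest value above 0 gave whole numbers (tolerance 0.01) for 100% of values in all 6 libraries. ND replicate 3 met this check like the others, but its step of 0.99 was the nearest to 1. It was by choice not accepted as recovered reads and was left out of count tests. The floor of 3 counts under ND still used its step. The other 5 libraries held 13188812 to 15482458 reads. Normalized counts summed to 14119816 to 14752121 per library. Symbols were matched for 19202 of 19323 identifiers. Gene positions and exon lengths are from GENCODE M21 on mm10.

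Genes with a mean of at least 10 were tested on log2(value + 1) with limma 3.58.1 (intensity trend, diet as the only term, Benjamini-Hochberg at 0.05) in R 4.3.3. Gene pair ratios were compared by exact permutation over 20 arrangements. Of the 5 pairs planned, Ctsk with Ctss gave no ratio because of a library at 0. No list was tested as a set. Alternatives were other pseudocounts, filters and scalings, array weights, a fold threshold, a replicate block, leaving out single libraries, and count tests (edgeR 4.0.16, DESeq2 1.42.0) with the reads of those 5 libraries. The procedure was tested on simulated data. Libraries of the same diet differed by more than sampling noise (chi-square per degree of freedom of 6.55 to 12.5 over the 4 pairs with reads).

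The members, gene lists, pairs and tests were chosen with earlier results of these data known. The rule for named genes was all 10 members, every other cathepsin in the table, all genes of lists with 6 or fewer tested and otherwise up to 4 passing genes per list by size of change, and the genes of the pairs. Genes named beyond it (among them Cst3, Cstb, M6pr, Igf2r, Gnptab, Nagpa, Gnptg, Cst7, Ctla2a, Ctla2b, Pltp, Fdft1, Gzmk, Gzmb, Cd8a and Cd209a) were chosen for their role or after their values were seen. The floor of 3 counts covers counting error only. Some genes that this rule names are not reported here.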

Additional observations from a re-analysis of the deposited data

How the results depend on the processing

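The 9 tested cathepsins were called higher, and none lower, under 18 of 19 alternatives: other pseudocounts, filters and scalings, array weights, a test against a fold change of 1.5, edgeR and DESeq2, and leaving out each library in turn (9 higher and 0 lower in each). The exception was the scaling, added after seeing the data, that held macrophage markers equal. It gave 0 higher and 7 lower, with log2 fold changes of -1.0035 (Ctsa), -0.84 (Ctsz), -0.74 (Ctsc), -0.59 (Ctss), -0.41 (Ctsd), -0.37 (Ctsh) and -0.34 (Ctse), and with Ctsb at 0.09 and Ctsl at 0.15 not passing. It moved the median of all tested genes by -2.15, called 12712 genes and split them into 347 higher and 12365 lower, beside 7837 genes (4065 higher and 3772 lower) with the deposited scaling. Holding CD8 T cell identity equal moved that median by 1.04 and gave 11262 higher and 430 lower. The test against a fold change of 1.5 called 2588 genes. Over the leave-one-out fits the count of all called genes ran from 7069 to 7677. On the recovered reads edgeR called 7136 genes and DESeq2 6715.

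The replicate block gave 7707 called genes and 9 cathepsins higher. Deviations of libraries with the same number correlated at 0.0365, 0.0621 and 0.00572, ND replicate 3 correlated best with MCDHFD replicate 1, and the numbers were not taken as pairs. As paired values the 4 ratios kept their differences, each with an exact p of 0.25, the smallest that 3 pairs allow. All 4 ratios kept their direction without each library. Ctsk had too few reads for a comparison at this depth.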

Other observations

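Ctsk was near its floor, and other genes of osteoclasts, the cells known for cathepsin K, were mixed. Of 10 listed genes 6 were tested, with 4 higher and 2 lower in MCDHFD. Tnfrsf11a, the RANK receptor gene, rose from 97.7 ± 9.66 to 294 ± 47.9 normalized counts (SD, n = 3 per diet), and Ocstamp (log2 fold change 1.06), Mmp9 (0.93) and the acid phosphatase gene Acp5 (0.55) rose. The integrin gene Itgb3 (-2.31) and the transcription factor gene Nfatc1 (-0.53) fell. Nfatc1 was called higher with CD8 T cell identity genes held equal, as were 11262 of the 13430 tested genes. With macrophage markers held equal all 6 were lower, as were 12365 of the tested genes. Atp6v0d2, Dcstamp and Oscar were not tested, with means below 10.

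The genes whose pattern over the 6 libraries lay closest to Ctsb, Ctsd and Ctsc, the 3 cathepsins with the highest mean normalized count over all libraries, were named by the root mean square distance of centred log2 values, among 11061 genes (mean 50 or more). Ctss was close behind Ctsc by this mean and ranked above it per kilobase. Closest to Ctsb were Asah1 (distance 0.0389), Vcam1 (0.0479) and Hip1 (0.060). Vcam1, an adhesion molecule abundant on red pulp macrophages, went from 12596 ± 1164 to 56721 ± 5802 normalized counts. Among the closest to Ctsd were Gcnt1 (0.0282) and the receptor kinase gene Axl (0.0289). Closest to Ctsc were Nlrc4 (0.0214), an inflammasome sensor gene, Rnf149 (0.0302) and Tns1 (0.0388). The libraries fall into 2 diets, so these distances are set mostly by the size of the difference between diets and describe these libraries only.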
